A study of Mus musculus with 12 samples.

Results

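Fibronectin, the laminin chains and the integrin chains were examined in fetal liver RNA as 1 group of extracellular matrix proteins and their receptors. The members were matched by gene symbol, as the rows of the deposited table named Fn1, Itga, Itgb, Lama, Lamb or Lamc followed by a chain number or letter. This gave 38 of 30743 rows, namely Fn1, 18 integrin alpha chains, 8 integrin beta chains and 11 laminin chains. The livers came from male C57BL/6J fetuses at 15 ± 0.5 dpc (days post coitum), with 6 fetuses per diet group. Control dams received a diet with 13.5 kcal% fat and HFD dams a diet with 60 kcal% fat, each for 12 to 14 weeks. The labels name no allele and no agent other than the diet, and how the 12 fetuses were divided among litters was not stated. The values used here are the authors' average levels over all 12 livers, in log2 CPM, where CPM is the number of reads of a gene per 1000000 reads. No level below therefore has an SD or an n, and the livers of the diet groups were not compared. The listed CPM include a prior count, taken as 2 reads per library, so that a gene without reads was listed at 0.15 CPM. CPM per kilobase leaves the prior count out.

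Integrins are cell surface receptors made of 1 alpha and 1 beta chain, and the pair decides which ligand is bound. Laminins are trimers of an alpha, a beta and a gamma chain and form the sheet of basement membranes, and fibronectin is a soluble plasma protein and an insoluble matrix protein. In the fetal liver, developing blood cells hold to macrophages, stroma and matrix through integrins, and integrins also take part in their homing to and from the organ.

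Of the 38 members, 20 lay above 1 CPM, 13 lay below it with reads, and 5 stood at the lowest value of the table, -2.71 on the log2 CPM scale, which is the value of a gene without reads. The share above 1 CPM was 52.6% of the members, against 45.1% of the 18715 protein-coding rows and 33.1% of all rows. The median level of the members was 0.68 log2 CPM, against -0.65 for protein-coding rows. Among the integrins 11 of 26 chains were above 1 CPM, and among the laminins 8 of 11. A gene at 1 CPM had about 134 reads in the 12 livers together.

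**Figure D1:**
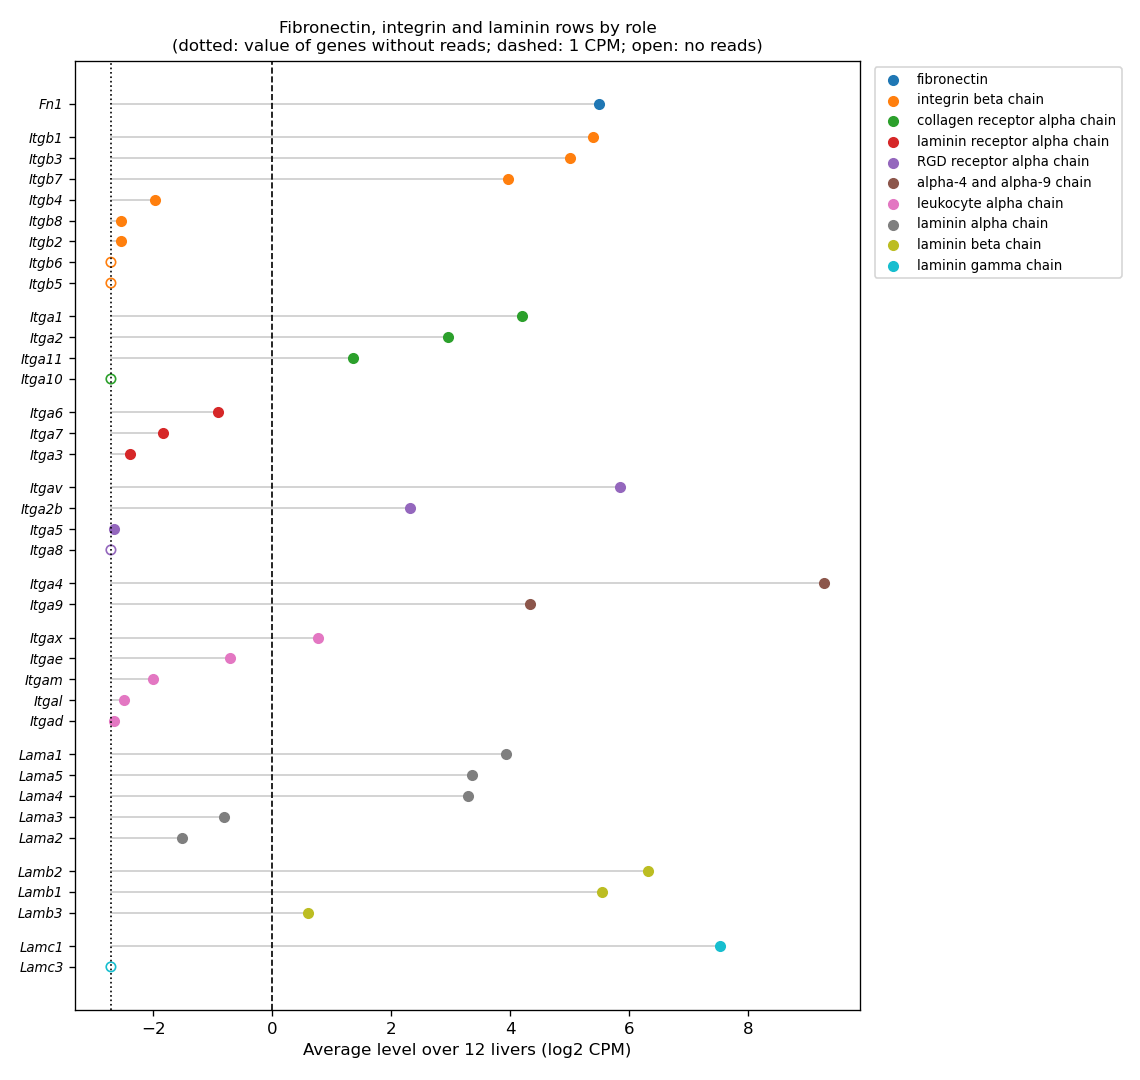
Average level over 12 livers (log2 CPM, horizontal axis) of 37 members, grouped by role. Each point is 1 gene, open points are the 5 genes at the value of genes without reads (dotted line), and the dashed line marks 1 CPM. Itga4 stands at 9.29, and Itga3, Itga6 and Itga7, the chains grouped here as laminin receptor alpha chains, lie below 1 CPM.

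These levels count reads that the authors' processing gave to a gene, and the table does not list all abundant genes as abundant. Lamp1, a protein of every lysosome, stood at the value of genes without reads. Ppia, a cyclophilin of nearly all cells, had about 2 reads, and Gapdh, a glycolytic enzyme, was listed at 5.20 CPM. The rows Actb, Tubb5 and Eef1a1 were listed at 2581 CPM, 2767 CPM and 5951 CPM. Of 31 constitutive proteasome subunits, which are built into 1 complex, 25 lay above 1 CPM with a median over all 31 of 7.63 log2 CPM, while 6 lay below 1 CPM and reached down to -2.35 log2 CPM. The collagen IV chains, which assemble with each other, had about 2 reads for Col4a1 and 147.9 CPM for Col4a2. The fibrinogen chains, secreted by hepatocytes as 1 protein, were listed at 74.1 CPM for Fga, 140.7 CPM for Fgg and 2385 CPM for Fgb. These genes were chosen after their values were seen. A low value of a member, or the value of genes without reads, is therefore given below as listed, and not as absence of its RNA.

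**Figure D2:**
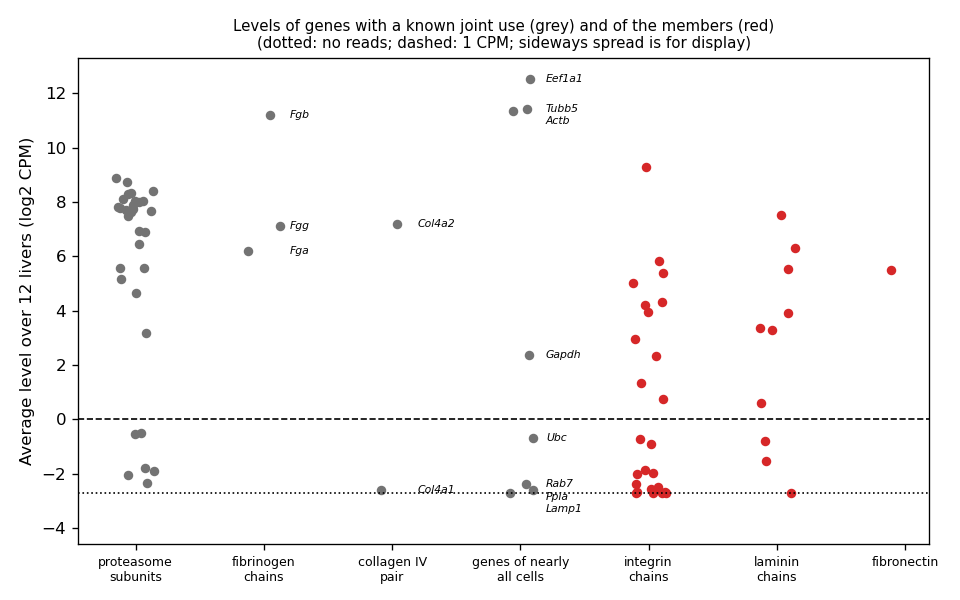
Average level over 12 livers (log2 CPM, vertical axis) of genes whose products are used together or in nearly all cells (grey) and of the integrin, laminin and fibronectin rows (red). Each point is 1 gene, the dotted line is the value of genes without reads and the dashed line is 1 CPM; 6 of 31 proteasome subunits and Col4a1 lie among the low members.

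Fn1, which encodes plasma and cellular fibronectin, was listed at 5.51 log2 CPM (45.4 CPM), above 84.9% of the 19652 rows with reads. Its gene occupies chromosome 1 from 71585520 to 71653200 (build GRCm38, which is mm10, as are all positions below), and GENCODE M21 annotates 9 protein-coding transcripts for it, the most of any member. Its exons overlap those of Apol7d in that annotation. Vtn, which encodes vitronectin, another plasma protein bound by integrins, was listed at 1550 CPM.

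Of the 8 integrin beta chains, 3 lay above 1 CPM, namely Itgb1, Itgb3 and Itgb7. Itgb1, the partner of most alpha chains, was listed at 5.40 log2 CPM (42.3 CPM). It lies on chromosome 8 from 128685654 to 128733200. Itgb3, the partner of the platelet chain Itga2b and of Itgav, was listed at 5.01 log2 CPM (32.2 CPM), and Itgb7, which pairs with Itga4 and Itgae, at 3.97 log2 CPM (15.6 CPM). Per kilobase of annotated exons, Itgb1 had 10.3 CPM, Itgb7 5.59 CPM and Itgb3 5.43 CPM, so that Itgb7 and Itgb3 were close to each other once length was taken into account.

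The other 5 beta chains had at most 16 reads in all livers together. Itgb4, the hemidesmosome chain that pairs with Itga6, had about 16 reads (95% Poisson interval 9.15 to 26.0). Itgb8, which pairs with Itgav, and Itgb2, the beta chain of the leukocyte integrins, each had about 3 reads (0.62 to 8.77). Itgb5 and Itgb6, both partners of Itgav, stood at the value of genes without reads. These intervals cover counting error only. Itgb2l, a relative of Itgb2 outside the name pattern and noticed after its value was seen, was listed at 17.6 CPM. Whether the counting divided reads between the related rows was not tested.

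Itga4 had the highest level of all 38 members, both as listed and per kilobase. It encodes the alpha chain that pairs with Itgb1 or Itgb7 and binds VCAM1 and fibronectin, and it serves in the attachment of erythroblasts to macrophages. Its level was 9.29 log2 CPM (625.9 CPM), above 99.1% of rows with reads, and 44.8 CPM per kilobase. Its reads made up 51.0% of the summed CPM of the members. Itga4 lies on chromosome 2 from 79255426 to 79333123, and its exons overlap those of Cerkl, so reads of the overlap cannot be told apart in a library that does not mark strand. Vcam1, its cell surface ligand, was listed at 290.1 CPM. Itga9, the closest relative of Itga4, was listed at 4.34 log2 CPM (20.2 CPM) and 2.61 CPM per kilobase.

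**Figure D3:**
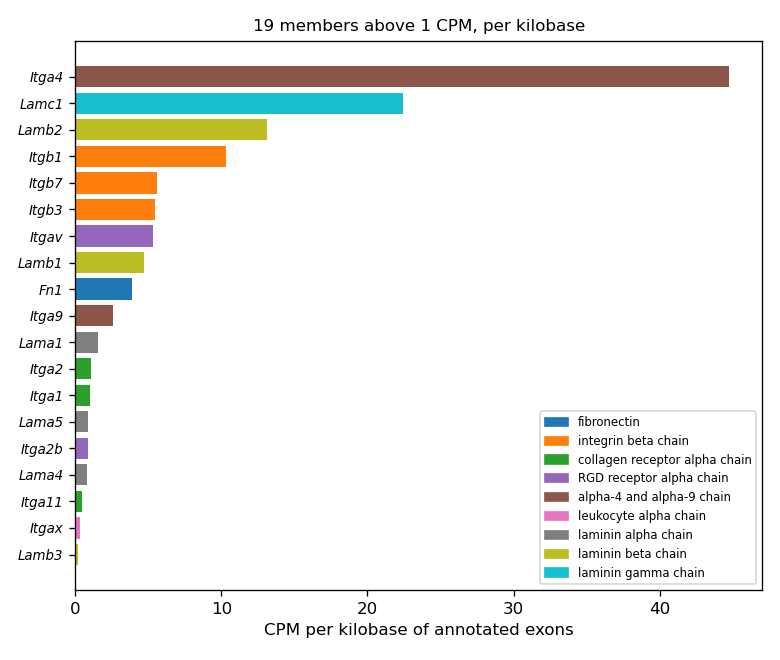
Average level over 12 livers in CPM per kilobase of annotated exons (horizontal axis) of 19 members above 1 CPM, coloured by role. Each bar is 1 gene, with the prior count removed; Itga4 (44.8) and Lamc1 (22.4) stand above Lamb2 (13.1) and Itgb1 (10.3).

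Among the alpha chains of receptors that read the RGD motif of their ligands, Itgav and Itga2b lay above 1 CPM. Itgav, which pairs with several beta chains including Itgb1 and Itgb3 and lies on chromosome 2 from 83724397 to 83806916, was listed at 5.84 log2 CPM (57.5 CPM) and 5.33 CPM per kilobase. Itga2b, the megakaryocyte and platelet chain, was listed at 2.32 log2 CPM (4.99 CPM) and 0.89 CPM per kilobase, lower than its partner Itgb3. Itga5, the classical fibronectin receptor chain, had about 1 read (95% Poisson interval 0.025 to 5.57), and Itga8 stood at the value of genes without reads.

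Of the 4 alpha chains of collagen receptors, 3 lay above 1 CPM. Itga1 was listed at 4.19 log2 CPM (18.3 CPM), Itga2 at 2.96 log2 CPM (7.76 CPM) and Itga11 at 1.35 log2 CPM (2.55 CPM). Per kilobase of annotated exons, Itga1 had 0.98 CPM, Itga2 1.07 CPM and Itga11 0.47 CPM. The annotated exons of Itga1 are together much longer than its longest transcript, while for Itga2 these lengths are nearly equal. With the longest transcript as length, Itga1 would lie above Itga2, so their closeness per kilobase depends on the length used. Itga10 stood at the value of genes without reads.

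None of the 3 alpha chains grouped here under laminin receptors reached 1 CPM. Itga6, which marks many stem and progenitor cells and also pairs with Itgb4, had about 60 reads (95% Poisson interval 45.8 to 77.2). Itga7, known from muscle, had about 20 reads, and Itga3, known from epithelium, about 6 reads.

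Of the 5 leukocyte alpha chains, Itgax alone lay above 1 CPM, at 0.77 log2 CPM (1.70 CPM). Itgae, which pairs with Itgb7 and binds E-cadherin, had about 72 reads (56.3 to 90.7), and lay below 1 CPM at 0.61 CPM. Itgam, the chain of Mac-1 on myeloid cells, had about 15 reads, Itgal about 4 and Itgad about 1. Itgb2, the partner of Itgax, Itgam, Itgal and Itgad, had about 3 reads as given above, whereas the 6 neutrophil and myeloid progenitor genes found in the table (Ly6g had no row under that symbol) lay between 5.26 log2 CPM (Prtn3) and 9.57 log2 CPM (Mpo).

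Lamc1, Lamb2 and Lamb1 were listed higher per kilobase than any laminin alpha chain. Lamc1, the gamma chain of most laminins, was listed at 7.54 log2 CPM (185.8 CPM, above 95.8% of rows with reads) and had 22.4 CPM per kilobase. It lies on chromosome 1 from 153218922 to 153332786, and its exons overlap no other annotated gene. Lamb2 on chromosome 9 (108479736 to 108490530) was listed at 6.32 log2 CPM with 13.1 CPM per kilobase, and Lamb1 on chromosome 12 (31265234 to 31329644) at 5.54 log2 CPM with 4.68 CPM per kilobase.

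The alpha chains of laminins, which carry most of the integrin binding sites, were led by Lama1, Lama5 and Lama4. These were listed at 3.93, 3.36 and 3.29 log2 CPM, and at 1.56, 0.89 and 0.80 CPM per kilobase of annotated exons. The annotated exons of Lama4 total 12.1 kilobases against 6.05 for its longest transcript, while both lengths were 11.4 for Lama5. With the longest transcript as length, Lama4 would lie above Lama5 and just above Lama1, so the order of these chains depends on the length used. The level per kilobase of each of these alpha chains was below that of Lamc1, with which each can form a trimer. Lama3, found with Lamb3 in the laminin of skin and other epithelia, had about 66 reads (51.0 to 84.0). Its partner Lamb3 was listed at 1.52 CPM and was the lowest member above 1 CPM. Lama2, the chain of muscle laminin, had about 31 reads (21.1 to 44.0), and Lamc3 stood at the value of genes without reads.

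**Figure D4:**
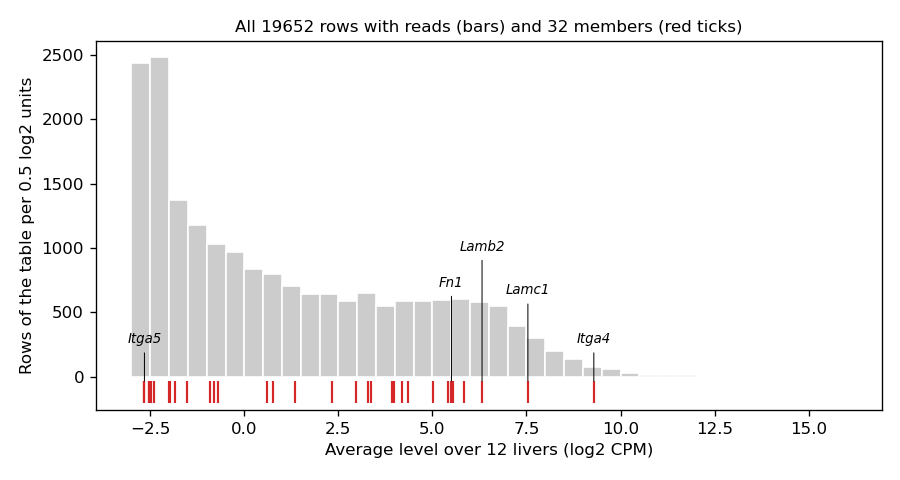
Number of rows per 0.5 log2 units (vertical axis) by average level over 12 livers (log2 CPM, horizontal axis) for all 19652 rows with reads, with a red tick for each of 32 members with reads. The members run from Itgad and Itga5, with about 1 read each, to Itga4 at 9.29.

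The level as listed was set beside the annotation of each member. Of the 11 members with 1 protein-coding transcript in GENCODE M21, 8 lay above 1 CPM, and of the 27 with more, 12 did, including Lamc1. All 5 members at the value of genes without reads were among the 27. For all protein-coding rows the shares above 1 CPM were 48.9% and 43.3%, and for the proteasome subunits 12 of 13 and 13 of 18. When all transcripts were counted, coding or not, 4 of 9 members with 3 or fewer and 16 of 29 with more lay above 1 CPM, so the order of the shares turned. Of the 13 members whose exons overlap another annotated gene, 4 lay above 1 CPM, against 16 of the 25 without an overlap. For the split by all transcripts and for the overlap, the shares over all protein-coding rows were not computed. Neither split can therefore be read as particular to the members. The part of transcript number and overlap in the levels was not tested.

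Genes that work with integrins were described from lists by their levels alone. Of 32 adaptor and signalling genes, 21 lay above 1 CPM, with a median of 1.36 log2 CPM. Tln1, the talin that binds beta chain tails and activates integrins, was listed at 882.4 CPM, Rap1b, a small GTPase upstream of talin, at 418.0 CPM, Parvb, a parvin of the ILK complex, at 216.5 CPM and Vcl, vinculin, at 209.1 CPM. Fermt2, a kindlin, was listed at 132.5 CPM, while the blood cell kindlin Fermt3 had about 2 reads and Ilk about 93.

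Of 39 other basement membrane and integrin ligand genes, 25 lay above 1 CPM, with a median of 1.95 log2 CPM and 4 at the value of genes without reads (Sparc, Thbs1, Npnt and Edil3). Nid1, the nidogen that links laminin to collagen IV, was listed at 229.3 CPM, Cdh1, E-cadherin and the ligand of the Itgae pair, at 206.6 CPM, Hspg2, perlecan, at 72.5 CPM and Agrn, agrin, at 38.5 CPM. Icam1 and Icam4, ligands of leukocyte integrins, were listed at 39.6 CPM and 32.3 CPM. Of 17 non-integrin laminin receptors and partners, 9 lay above 1 CPM, among them the tetraspanin Cd9 at 143.1 CPM, Sdc4 at 141.8 CPM and Bcam, a receptor for Lama5 laminins, at 21.9 CPM. Dag1, dystroglycan, had about 85 reads.

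The labelled tissue was checked with marker genes. Hepatocyte genes were above 1 CPM in 5 of 6 cases, with Alb at 15.95 log2 CPM, and erythroid genes in 4 of the 5 found in the table (Hba-a1, Hbb-bt and Hbb-bs had no row under those symbols). Serpina1a (about 5 reads) and Alas2 (about 87 reads) were the exceptions. Of the other lists, 4 of 7 macrophage, 3 of 8 megakaryocyte, 4 of 6 B lineage, 1 of 6 T and NK, 4 of 7 endothelial, 7 of 8 stellate and mesenchymal, 4 of 5 biliary and epithelial, 3 of 5 pancreatic acinar and 0 of 3 basal epithelial genes lay above 1 CPM. Among all protein-coding rows the share was 45.1%. In the same order, the median levels of these lists were 7.70, -0.88, 1.42, -1.67, 1.16, 5.11, 2.50, 0.85 and -1.28 log2 CPM. Defining genes at the value of genes without reads included Emr1 (F4/80), Pecam1, Tek and Pdgfrb, in lists that also held abundant genes, such as Mpeg1, Cdh5 and Col3a1. In whole liver RNA, fewer cells of a type and less RNA per cell cannot be told apart, and the levels above were not assigned to a cell type.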

How the data were processed

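PolyA-selected RNA of 12 whole livers, 6 per diet, was sequenced without strand information. Alignment by the authors was with Subread, version 1.3.6-p1, to the mm10 build, and biomaRt supplied their annotation. The authors used edgeR for the diet comparison. The submitters' notes also name cutadapt 1.2.1. The counting tool is not given in the sources used here. The deposited table gives an average log2 CPM per gene symbol, which was used, and 8 columns of the authors' own diet comparison (log2 fold changes, p-values, adjusted p-values and signed fold changes for 2 dispersion estimates), which were not used. The planned test of HFD against control needs values of single livers and was not run.

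The value of genes without reads gave a mean effective library of 1.31e+07 reads, taking the prior count used by the authors as the default of 2. Of 4222 rows with about 1 to 10 reads, 99.7% came within 0.1 of a whole number of reads. Read numbers of higher genes are approximate. CPM per kilobase used the level without the prior count and the union of GENCODE M21 exons on GRCm38. All 38 members matched, as did 21063 of 30743 symbols. Every member was accounted for by role, those above 1 CPM with their level, except that 1 member and 1 marker gene entered the counts and are not reported here by name or in the figures. Members and lists were chosen with earlier results of these data known. The read recovery was tested on data simulated and fitted with the same prior count and the same dispersion. Recovery of the mean library size follows there from the formula and is no support for it. That test cannot tell which prior count or dispersion the authors used or how reads were counted. Scripts ran in Python 3.11.15 (numpy 2.4.6, scipy 1.17.1, pandas 2.3.3), and plots were drawn in matplotlib 3.10.9.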

Additional observations from a re-analysis of the deposited data

How the results depend on the processing

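The number of members above 1 CPM was 20, and it was 23 above 0.5 CPM, 18 above 2 CPM and 20 with the prior count removed. The 10 highest members per kilobase were the same 10 with the longest transcript as length and with the prior count kept. Only membership in the 10 was compared. The order depends on the length used. Among the changes with the longest transcript, Itgav and Lamb1 pass Itgb7 and Itgb3, and Itga1 passes Itga2 and Lama1. Lama4 passes Lama5 and, narrowly, Lama1, and Itga2b passes Itga2 and Lama5. The median member lay at percentile 54.0 of rows with reads. That median was over all 38 members, with the 5 without reads placed below every reference row. Other rows without reads were left out of the reference, which lowers this percentile. For the members above 1 CPM the median was at percentile 54.3 of the rows above 1 CPM. The share above 1 CPM was 28.3 percentage points higher in members with 1 coding transcript than in those with more, and differed by -10.7 points between members with 3 or fewer transcripts of any kind and the rest. Both of these splits were chosen after seeing the data. The cause was not tested. DESeq2, no filter, another pseudocount, leaving out livers and a block by the first number of the sample title were not run, since they need values of single livers. No paired analysis was possible because the level used here is a mean over all livers. Depth limits members of a few reads, for which counting intervals span several fold. The value of genes without reads gives no limit on the RNA present.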
